A study of Mus musculus with 5 samples.

Results

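The JunB sites described here are the core sites of muscle stem cells (MuSCs), the regions that carried a JunB peak in each of the 4 JunB CUT&RUN-seq libraries of the series. They were selected on the peak calls themselves: the peaks of 3 libraries labelled Young and 1 library labelled Aged were merged where they overlapped or touched on chromosomes 1 to 19 and X, and a merged region was kept when it overlapped a peak of every library by at least 1 bp. The rule kept 2465 of 18748 merged regions, which is 13.1%. All libraries came from mouse MuSCs of muscle, the resident stem cells that rebuild myofibres after injury, and the labels give no strain or age in weeks, no treatment for the young or aged mice and no genotype. By the study's methods MuSCs of young and aged mice were sorted as CD45-, CD31-, SCA1- and VCAM+ cells. A further library of mouse MuSCs was made with an antibody against H3K27ac, an acetylation mark of active promoters and enhancers, and the age of its mice is not given. CUT&RUN-seq brings a nuclease to the antibody on opened cells, and the DNA cut loose beside the bound protein is sequenced. The sample titles, which were followed here, name young and aged mice, but the series text describes mice given DMSO or MVC. A supplementary sheet of peaks also carries the age headings the other way round from the titles. The reporting summary of the study fits the titles, since it counts a single library of aged mice and as many peaks in it as the list labelled Aged holds. The sources thus differ on which library is the aged one. Membership of the core set does not depend on the age labels, while every statement about the aged library does.

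JunB is a subunit of AP-1, a family of leucine zipper transcription factors that bind DNA as pairs. Jun proteins pair with each other or with Fos, Fosl and Atf proteins, and the pairs bind the sequence TGAGTCA, whose reverse complement is TGACTCA. Some AP-1 genes are immediate-early genes, induced within minutes when stem cells are disturbed. AP-1 sites are common in enhancers far from genes as well as in promoters.

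The sequences below come from core sites farther than 3 kb from a transcription start site (TSS) that overlapped an H3K27ac peak. They are among the strongest of those that held the AP-1 motif within 250 bp of the summits. Sites on the 100 strongest H3K27ac peaks were left out. Since a copy of the motif was a condition for being shown, the sequences do not tell how often strong sites hold it. Strength here is the lowest rank of a region over the 4 libraries, by the −log10 p of its strongest peak. Each line gives the nearest protein-coding gene and 81 bp of the reference (mm10, plus strand) centred on the copy nearest to the peak summits, from windows that overlap no annotated exon, and capitals mark the motif on either strand.
Gm10604, chr4:11990016-11990096: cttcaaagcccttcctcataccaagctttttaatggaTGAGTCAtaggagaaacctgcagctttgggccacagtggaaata
Rubcn, chr16:32859097-32859177: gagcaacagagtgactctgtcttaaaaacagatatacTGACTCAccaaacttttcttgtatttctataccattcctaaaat
Pdpn, chr4:143278488-143278568: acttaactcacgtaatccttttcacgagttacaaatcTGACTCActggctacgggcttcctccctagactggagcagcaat
Adra1b, chr11:43919931-43920011: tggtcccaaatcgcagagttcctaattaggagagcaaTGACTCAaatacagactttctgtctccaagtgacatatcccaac
Ankrd28, chr14:31768757-31768837: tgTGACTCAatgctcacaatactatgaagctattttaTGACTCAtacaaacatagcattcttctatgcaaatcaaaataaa
Manba, chr3:135556178-135556258: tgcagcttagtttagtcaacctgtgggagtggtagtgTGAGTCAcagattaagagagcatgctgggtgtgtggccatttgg
Aig1, chr10:13833176-13833256: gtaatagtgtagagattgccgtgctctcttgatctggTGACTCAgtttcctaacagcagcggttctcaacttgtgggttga
Gadd45a, chr6:67102659-67102739: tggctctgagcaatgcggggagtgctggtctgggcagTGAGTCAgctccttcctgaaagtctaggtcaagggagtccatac

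The copies in these sites did not lie under the summits. The summit is the base of highest pileup in a peak, and the middle of the 4 summits was taken for a region. The copy nearest to it was 163 bp away in the site near Gm10604, 72 bp near Rubcn, 216 bp near Pdpn, 75 bp near Adra1b, 161 bp near Ankrd28, 129 bp near Manba, 115 bp near Aig1 and 178 bp near Gadd45a. The sites lay in introns of Rubcn, Pdpn, Ankrd28 and Aig1, within Manba, in an intron of a gene that codes for no protein (the site near Gm10604) and between genes (those near Adra1b and Gadd45a).

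Across all core sites the AP-1 motif formed a ring around the summits. Within 49 bp of the middle of the summits there were 7.38 copies of the motif per 100 core sites, from 50 to 99 bp there were 11.6, from 100 to 149 bp 21.5, from 150 to 199 bp 27.7, from 200 to 249 bp 16.5 and from 250 to 299 bp 5.35. At 450 to 499 bp 1.83 copies per 100 sites were left. The highest ring thus held 3.76 times the copies of the innermost one and 15.2 times those of the outermost. Every library showed the ring around its own summits. Young replicate 1 had 26.1 copies per 100 core sites at 150 to 199 bp against 6.69 within 49 bp, young replicate 2 had 26.7 against 6.77, young replicate 3 had 23.6 against 8.48 and the aged library had 24.0 against 6.17. In the 1404 core sites whose 4 summits lay within 100 bp of each other, the ring was sharper, with 32.3 copies per 100 sites at 150 to 199 bp and 4.42 within 49 bp. Around the midpoints of the core sites, in place of the summits, the copies formed no ring. There the innermost 49 bp held the most, 19.6 copies per 100 sites, against 15.1 at 50 to 99 bp, 18.3 at 100 to 149 bp and 14.6 at 150 to 199 bp. The strand shift and read extension with which the summits were called are not given in the sources used here, so the ring describes the summits as deposited, and the part of these settings in it was not tested.

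**Figure D1:**
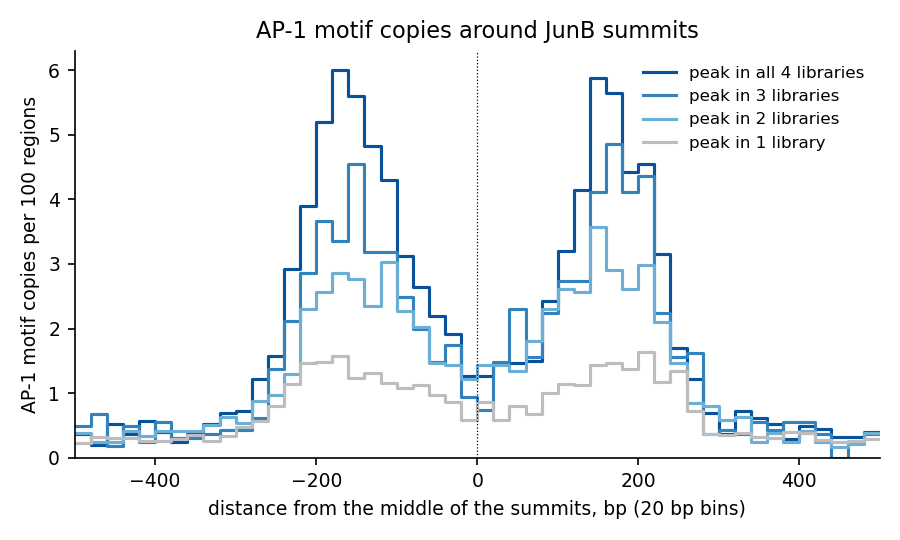
Copies of the AP-1 motif (TGAGTCA or TGACTCA) per 100 regions in bins of 20 bp, against the distance in bp from the middle of the JunB summits, for regions with a peak in all 4 libraries (core) and in 3, 2 or 1 libraries. The copies lie in a band on each side of the summits, with few at the summits themselves, and the core line is the highest in both bands.

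The ring was not particular to the core sites. Peaks of the same libraries outside core regions had their highest density at 150 to 199 bp too, at 12.2, 18.4 and 19.1 copies per 100 peaks for the young libraries in order, against 8.55 in aged peaks. The 31527 H3K27ac peaks that overlapped no JunB region had 1.87 copies per 100 peaks at 150 to 199 bp and 1.47 within 49 bp of their own summits. The 1773 H3K27ac peaks that overlapped a core site had 11.4 and 6.03 around their own summits, also with the highest density at 150 to 199 bp. A related motif is the cyclic AMP response element TGACGTCA, which Jun and Atf pairs can bind. It showed the same outline at core summits at a much lower level. This element is its own reverse complement and each copy was matched on both strands, so its matches overstate the copies. There were 61 matches at 150 to 199 bp and 5 within 49 bp, and 2 of 2465 core sites held it within 50 bp. The E-box CAGCTG, a sequence that the myogenic factors MyoD and Myf5 bind, also reads the same on both strands, so its matches overstate the copies too. It had 551 matches at 150 to 199 bp, 344 within 49 bp and 295 at 450 to 499 bp. Within 50 bp of the summits 6.21% of core sites held it, against 5.46% of windows centred 500 bp to each side. GGAATG, the sequence that TEAD factors bind, varied less. It had 8.36 copies per 100 sites at 100 to 149 bp, 7.59 within 49 bp and 5.23 at 450 to 499 bp. Both strands were searched for each motif, and a match says only that these letters are present.

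Sites with copies on both sides of the summits are shown by a pair of stretches of 300 bp each, both from the plus strand of mm10 and outside exons. The first lies in an intron of Nt5c2, which encodes a nucleotidase, with copies 169 and 105 bp from the middle of the summits. The other lies between genes, 91061 bp from the nearest protein-coding TSS, that of the stress- and hormone-responsive kinase gene Sgk1, with copies 125 and 135 bp away. The middle of the summits is base 183 of the first stretch and base 146 of the other.
Nt5c2, chr19:46979116-46979415: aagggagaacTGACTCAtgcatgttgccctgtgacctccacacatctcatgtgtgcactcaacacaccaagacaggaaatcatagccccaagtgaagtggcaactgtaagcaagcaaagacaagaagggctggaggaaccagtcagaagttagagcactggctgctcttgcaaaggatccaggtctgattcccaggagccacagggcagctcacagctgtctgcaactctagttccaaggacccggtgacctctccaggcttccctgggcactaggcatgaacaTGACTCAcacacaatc
Sgk1, chr10:21790302-21790601: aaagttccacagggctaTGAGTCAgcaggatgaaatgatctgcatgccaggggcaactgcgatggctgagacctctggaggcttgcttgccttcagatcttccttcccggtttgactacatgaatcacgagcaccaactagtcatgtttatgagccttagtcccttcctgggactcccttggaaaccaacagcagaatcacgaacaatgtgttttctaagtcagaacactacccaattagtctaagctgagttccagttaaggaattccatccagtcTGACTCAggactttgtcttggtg

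JunB folds at these sites were 16.2, 13.3 and 12.3 for young replicates 1, 2 and 3 and 9.06 for the aged library at the Nt5c2 site, and 15.1, 16.0 and 14.6 against 9.43 at the Sgk1 site. A fold is the fold enrichment of a peak, the pileup at its summit over the local background of the same library. Of the 404 core sites with exactly 2 copies within 250 bp of the summits, 243 (60.1%) had a copy on each side of them, at a median spacing of 287 bp, while pairs on the same side had a median spacing of 57.0 bp. In the 929 core sites with a single copy, the copy lay a median of 155 bp from the summits (quartiles 115 and 192 bp), on the side of lower coordinates in 498 and of higher coordinates in 429.

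The share of core sites with the motif depended on the window. Within 50 bp of the middle of the summits 155 of 2465 core sites (6.29%) held it, against 1.62% of windows of the same length centred 500 bp to each side and 4.28% of all merged JunB regions. With the middle base of the motif at most 250 bp from the summits, a window chosen after the ring was seen, the share was 57.6% (exact 95% binomial interval 55.7% to 59.6%), against 9.61% of windows of the same length centred 1500 bp to each side and 32.3% of all merged JunB regions. Regions with a peak in 3 libraries held the motif in 50.3% of cases, those with a peak in 2 libraries in 41.5% and those with a peak in 1 library in 23.1%. The shares depended on which libraries these were. The 388 regions with a peak in all 3 young libraries but not in the aged one held the motif more often than the core, in 64.2% of cases (interval 59.2% to 69.0%), while the share was 38.4% in regions that lacked only young replicate 1, 50.4% without young replicate 2 and 45.8% without young replicate 3. Regions of a single library held it in 24.1%, 45.7% and 41.9% of cases for young replicates 1, 2 and 3 and in 21.5% for the aged library. All intervals cover the counting error of regions only, and differences between these sets were not tested. Core sites farther than 3 kb from a TSS held the motif more often (65.4%, interval 62.9% to 67.8%) than core sites at promoters (46.6%, interval 43.5% to 49.7%). The share was highest, 71.8%, in distal core sites without H3K27ac, against 61.8% in distal core sites with it, 57.3% in promoter sites without H3K27ac and 43.5% in promoter sites with it. Of the 616 strongest core sites 64.4% held the motif and 27.6% held 2 or more copies, against 54.8% and 16.7% of the 617 weakest. Nearer to the summits the order was the other way, with the motif within 50 bp in 3.90% of the strongest and 9.56% of the weakest, and within 100 bp in 14.8% and 19.9%. The bases beside the motif also differed from those of distant copies. A purine stood before the motif and a pyrimidine after it in 35.4% of 2093 copies around core summits and in 19.7% of 497 copies in the windows 1500 bp away. Around the summits of regions with a peak in 1 library the share was 31.4% of 3489 copies. These flanking bases were thus not particular to the core.

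Core sites were stronger than the other peaks of each library. The rule used these peak calls, so the folds are given as a description, with no test. The strongest peak of a core site had a median fold of 9.14, 9.34 and 9.06 for the young libraries in order (9.18 ± 0.147, mean ± SD, n = 3) and of 7.25 in the aged one. The other peaks of these libraries had medians of 4.57, 6.77, 7.12 and 4.67. The aged median lay below all young medians in core sites. At single sites the aged fold was below all 3 young folds in 1545 of 2465 core sites (62.7%), inside the young range in 716 (29.0%) and above all 3 in 204 (8.28%). By rank within the library the order was the other way: the aged percentile of −log10 p lay above all 3 young percentiles in 52.6% of core sites and below them in 12.6%, in a library with 13971 peaks on these chromosomes against 9327, 4799 and 3796 in the young ones. With 1 aged library no test between ages was made. The rank correlation (Spearman) of −log10 p over the 2465 sites was between 0.73 and 0.798 for pairs of young libraries and between 0.508 and 0.576 for a young library and the aged one, as a description over sites measured in the same libraries.

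**Figure D2:**
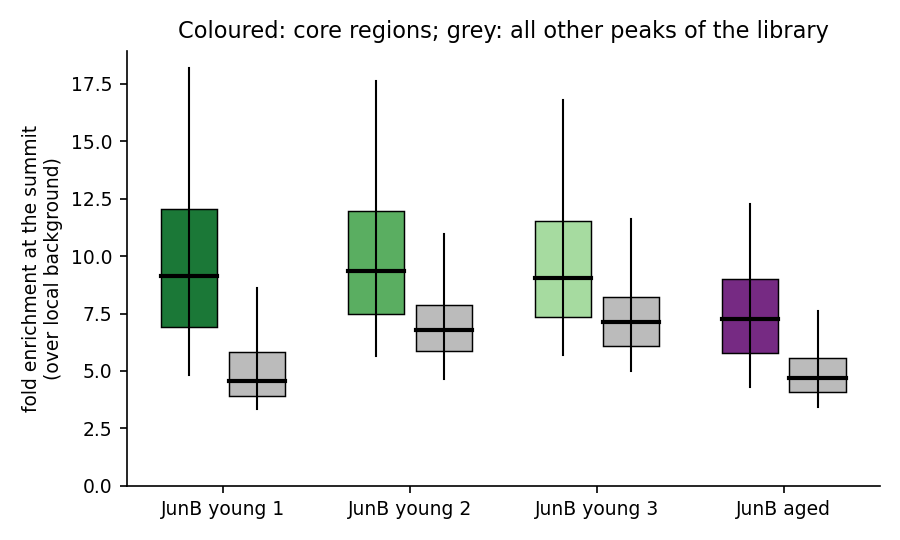
Fold enrichment at the summit (a ratio to the library's own local background) of the strongest peak of each core site (coloured) and of all other peaks of the library (grey). Boxes span the quartiles, thick lines are medians and thin lines run from the 5th to the 95th percentile. The core medians are 9.14, 9.34, 9.06 and 7.25 and those of the other peaks 4.57, 6.77, 7.12 and 4.67.

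Core sites took up 26.7%, 51.9% and 65.7% of the peaks in the young libraries (48.1% ± 19.8, mean ± SD, n = 3) and 17.8% of those in the aged one. The deposited lists had been cut at unlike thresholds, with a lowest −log10 p of 3.01 for both the aged library and young replicate 1, against 5.33 for young replicate 2 and 5.22 for young replicate 3. Read counts are not part of the lists, which leaves the sequencing depth at each site unknown. Core sites were 269 to 2833 bp wide, with a median of 619 bp, and 96.9% consisted of 1 peak of each library. A base covered by all 4 libraries was present in 98.9%, and 27 sites were joined only end to end. The outermost summits of the 4 libraries lay a median of 88.0 bp apart. Just outside the rule were 1606 regions with a peak in 3 libraries, of which 830 lacked a peak of young replicate 3, the shortest list, 388 lacked the aged library, 250 lacked young replicate 2 and 138 lacked young replicate 1. In 4 of these 1606 regions the missing library had a peak within 100 bp. With only the 2000 strongest peaks of each library, 854 regions were shared by all 4, and 1404 core sites had all 4 summits within 100 bp of each other. The 1-library regions numbered 12298, of which 8425 were in the aged library alone and 3418 in young replicate 1 alone.

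H3K27ac, which the rule did not use, overlapped 1723 core sites (69.9%, interval 68.0% to 71.7%), against 42.9% of all merged JunB regions. The share was 62.1% in 3-library regions, 55.0% in 2-library regions and 32.6% in 1-library regions. Core sites were also wider than the others, whose median widths were 545, 462 and 286 bp, and a wide region meets a peak more easily. For the middle of the summits alone the order was the same. That base lay in an H3K27ac peak in 59.9% of core sites, 54.9% of 3-library, 47.6% of 2-library and 28.3% of 1-library regions. The part of width in these shares was not tested. The rise was steeper outside promoters than at them. Outside promoters 64.5% of core sites and 21.1% of 1-library regions overlapped H3K27ac, and at promoters 77.6% and 53.7%. Regions of the 3 young libraries without an aged peak overlapped H3K27ac in 45.4% of 388 cases. The H3K27ac peaks on core sites had a median fold of 3.88, and their summits lay a median of 204 bp from the JunB summits.

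By position, 1015 core sites (41.2%) were promoter sites within 3 kb of a TSS, 724 (29.4%) lay in introns, 654 (26.5%) between genes and 72 (2.92%) in other exons. Promoters held 37.1% of all merged JunB regions, so the core was close to the background here, unlike for H3K27ac. The promoter share was 41.3% in 3-library, 39.7% in 2-library and 35.2% in 1-library regions, and among the latter it was 18.1% for young replicate 1 alone and 42.5% for the aged library alone. Of the core promoter sites, 42.3% had the middle of their summits within 250 bp of a TSS and 58.4% had it upstream of the nearest TSS. The distal core sites lay a median of 27774 bp from the nearest protein-coding TSS. Core promoter sites had a median GC content of 53.7% and distal ones of 47.9%. Repeat sequence made up 50% or more of 2.76% of the core sites and of 26.9% of the 1-library regions.

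**Figure D3:**
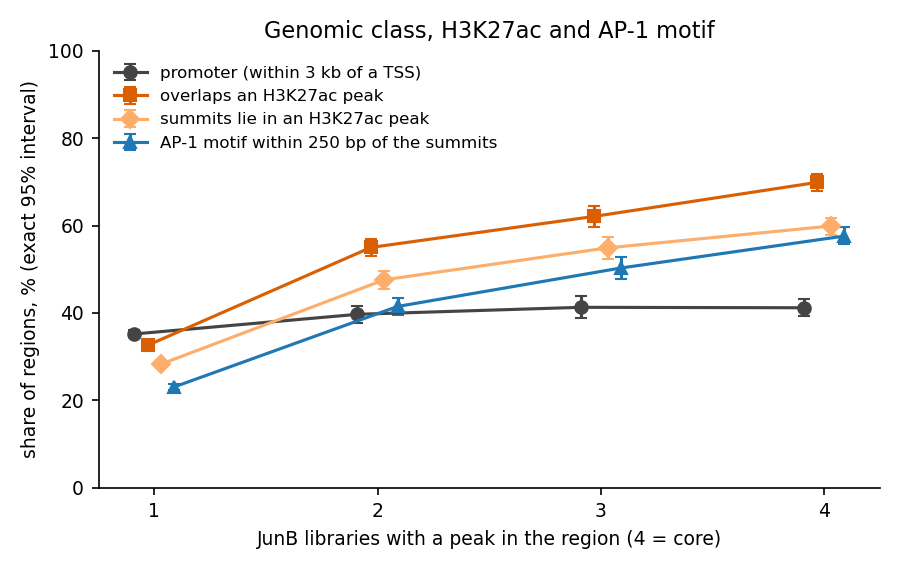
Share of regions (%, with exact 95% binomial intervals) at promoters, with an H3K27ac overlap, with the summits inside an H3K27ac peak and with the AP-1 motif within 250 bp of the summits, against the number of JunB libraries with a peak in the region. From 1 to 4 libraries the H3K27ac share goes from 32.6% to 69.9% and the motif share from 23.1% to 57.6%, while the promoter share goes from 35.2% to 41.2%.

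Core sites on the 100 strongest H3K27ac peaks are left out of the rankings here and described further below. Among the other core sites, the 10 strongest promoter sites with H3K27ac belonged to genes of unlike functions. At Lmna, which encodes the nuclear lamins A and C, the site at chr3:88503286-88503976 spanned a TSS, held 3 motif copies and had JunB folds of 23.4, 24.4 and 19.8 for young replicates 1, 2 and 3 and 14.5 for the aged library. At Piezo1, the gene of a stretch-gated ion channel, the site at chr8:122548597-122549490 lay 1839 bp from a TSS, held no copy and had folds of 21.9, 21.5, 21.0 and 13.0 in the same order. At both genes the young libraries lay close together and the aged one below them. Tns1 encodes tensin, which ties integrins to actin, and its site had 21.4, 19.0, 18.5 and 13.3. Traf2, an adaptor of tumour necrosis factor receptors, had 20.1, 23.0, 20.7 and 14.4. Ppp1r15b, whose product directs the phosphatase that reverses the block of translation under stress, had 20.3, 19.3, 19.2 and 11.7. The same order, with the aged fold lowest, held at the sites of Synpo, Tfg, Spaca6, Rnh1 and Jmjd1c, the other members of the 10 strongest. The 10 were ranked on these same peaks, with a young library setting the lowest percentile at each. The order thus describes the chosen sites only, against 62.7% of all core sites. The H3K27ac fold was 2.96 at Lmna and 2.40 at Piezo1, the lowest of these 10 sites.

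The next sites are the 10 strongest distal core sites with H3K27ac outside the 100 strongest H3K27ac peaks. Of them, the highest fold in any library was at chr3:135556185-135556745 within Manba, the gene of lysosomal beta-mannosidase. This site had 26.0, 24.2 and 23.7 for young replicates 1, 2 and 3 and 17.2 for the aged library. The site in Pdpn, which encodes the membrane glycoprotein podoplanin, had 25.9, 24.4, 21.9 and 12.3 and an H3K27ac fold of 4.86. The site in Rubcn, a brake on autophagy, had 22.4, 23.5, 22.8 and 12.9. Gadd45a encodes a growth arrest and DNA damage protein, and the site 64970 bp from its TSS had 21.2, 20.5, 21.2 and 14.2. Near Myl12b, a regulatory light chain of non-muscle myosin, the folds were 20.7, 25.6, 23.2 and 19.5, the narrowest gap between the aged and the young libraries among the 10, in a site with no copy of the motif. The aged fold was the lowest at each of these 10 sites, which were chosen by the same ranking, again with a young library setting the lowest percentile. The strongest sites without H3K27ac were at the promoters of Zmynd8, a reader of chromatin marks (25.4, 24.6, 23.0 and 16.7), and H1foo, the oocyte linker histone (23.7, 24.7, 22.4 and 14.1), and in distal sequence nearest to Tmx1, L3mbtl4 and Zfp217.

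**Figure D4:**
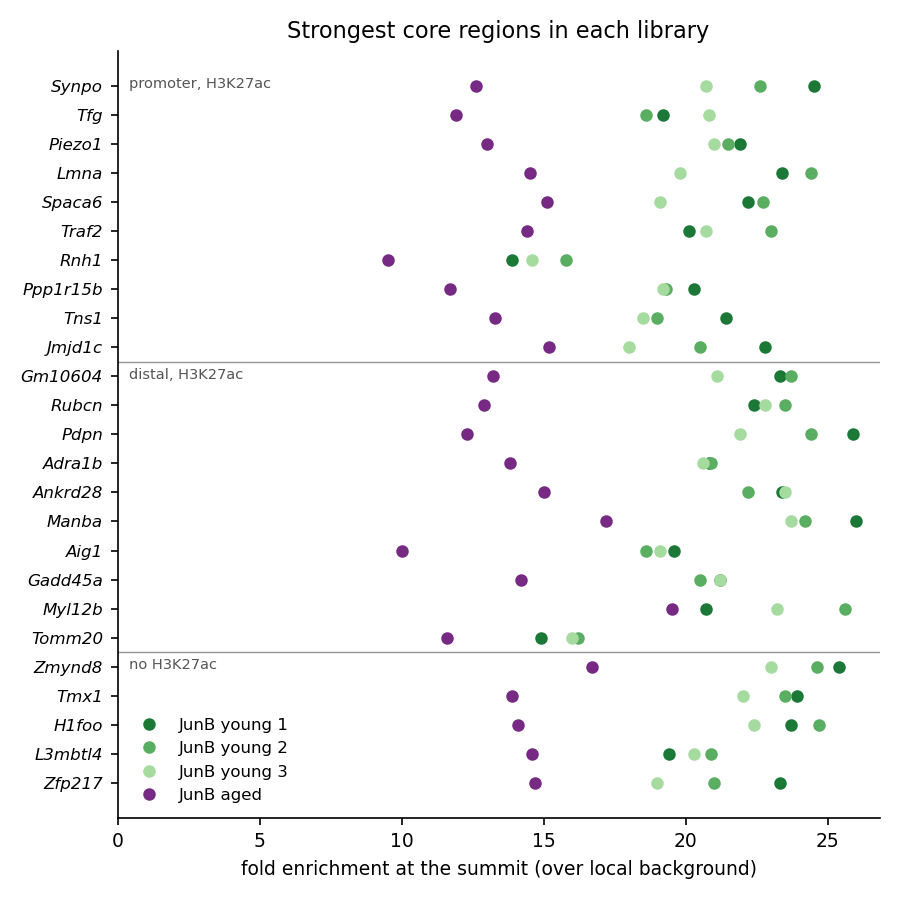
JunB fold enrichment at the summit in each library (colours) for the 10 strongest core promoter sites with H3K27ac, the 10 strongest distal ones with H3K27ac and the 5 strongest without H3K27ac, each named by its linked or nearest protein-coding gene. Core sites on the 100 strongest H3K27ac peaks are left out. The aged point is the lowest in every line, between 9.51 at Rnh1 and 19.5 at Myl12b. The sites were ranked on these same peaks, and a young library set the lowest percentile at each of them. Over all core sites the aged fold was below all 3 young folds in 62.7%.

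Sites on the 100 strongest H3K27ac peaks were set apart. There were 49 such core sites, 31 of them at least 50% repeat and 10 at the start of the assembled sequence of chromosome 9. Their median −log10 p was 214, 161 and 71.5 for the young libraries and 73.1 for the aged one, against 21.5, 21.9, 16.2 and 13.9 in the other core sites. The strongest of them lay at the predicted genes Gm10722, Gm17535 and Gm10721 on chromosome 9, nearest to Tmem196, and in Lars2, and none of these 5 held the motif. The repeats' part in the peaks was not tested.

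Core promoter sites were linked to 945 protein-coding genes and distal core sites with H3K27ac to 794 nearest genes, 1658 genes in all with 81 in both. As shares of 21727 annotated protein-coding genes these are 4.35% with a promoter site and 7.63% with either link. A distal link held for 3.65%, and a merged JunB region of any kind lay at the promoters of 26.0%. These shares are the background for the lists that follow. The links are by distance and show no regulation. Of the 945 genes, 92.9% had an H3K27ac peak within 3 kb of a TSS, against 50.2% of all protein-coding genes. Most linked genes had 1 core site (1461 genes) and 48 had 3 or more. Trib1, which encodes a Tribbles pseudokinase, had the most with 7. Its promoter site at chr15:59650649-59651179 had folds of 12.3, 11.9, 12.0 for the young libraries and 6.07 for the aged one, and 6 distal sites lay between 51020 and 135174 bp from a TSS. The site at chr15:59567107-59567711 had the highest H3K27ac fold of them, 5.75, and JunB folds of 14.1, 14.6, 13.7 and 9.67. Jarid2, an accessory subunit of Polycomb repressive complex 2, had 5 distal sites, of which that at chr13:44869509-44870009, in an intron, had 16.9, 22.4, 22.3 and 18.9, so the aged fold fell inside the young range.

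Among the AP-1 genes themselves, 3 of 20 had a core promoter site and 5 of 20 had either link. A merged JunB region of any kind lay at the promoters of 16 of the 20, against 26.0% of all protein-coding genes. The promoter sites were at Jun and Junb, and at 2 TSSs of Atf3, a stress-induced partner of Jun. The Jun site had folds of 4.88, 5.96, 6.77 for the young libraries and 4.70 for the aged one, and the Junb site, 724 bp from the TSS, had 9.40, 11.1, 8.70 and 5.13 with no H3K27ac overlap. The Atf3 site at chr1:191183030-191183893 had 7.45, 8.69, 6.32 and 8.80, so here the aged fold was the highest, while the other at chr1:191215962-191216547 had 11.3, 10.9, 10.4 and 5.18. Fos had no core promoter site and 3 distal ones with H3K27ac, 17920, 22633 and 57840 bp from its TSS. The farthest held a motif copy and had 7.41, 9.31, 8.14 and 9.43. Jdp2, an AP-1 repressor, was nearest to 1 further site.

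Of 30 immediate-early genes, 4 had a core promoter site and 12 (40.0%) had either link, the highest share of the lists examined. Distal links, which are to the nearest gene at any distance, held for 9 of these genes. A merged JunB region of any kind lay at the promoters of 22 of the 30, against 26.0% of all protein-coding genes. JunB at these promoters was thus not particular to the core. At promoters alone the share was 13.3%, below the 23.5% of heat-shock and stress genes. Promoter H3K27ac was present at 73.3% of the list, against 50.2% of all protein-coding genes. Promoter sites were at Zfp36, which encodes an RNA decay factor, the Krüppel-like factor gene Klf6, the survival gene Mcl1 and the MAP kinase phosphatase gene Dusp1. At Dusp1 the promoter site had 6.29, 15.3, 14.7 and 9.33, with young replicate 1 apart from the other young libraries. Distal sites with H3K27ac were nearest to Ier3, Zfp36l1, Zfp36l2, Klf4, Myc, Socs3, Dusp1, Gadd45a and Cebpd. Of these, the cytokine signalling inhibitor Socs3 had a site 36696 bp away with 13.3, 8.86, 10.1 and 9.95, and Myc had a site 340934 bp away with 9.50, 10.8, 8.58 and 9.18. At both sites the aged fold fell inside the young range. The copies of the motif beside some of these genes are shown here in 51 bp each (mm10, plus strand, motif in capitals), together with Atf3 and with Myod1 and Met, which follow.
Fos, chr12:85533360-85533410: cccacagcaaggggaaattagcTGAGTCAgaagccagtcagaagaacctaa
Atf3, chr1:191215946-191215996: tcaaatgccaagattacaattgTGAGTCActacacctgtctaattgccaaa
Zfp36, chr7:28381500-28381550: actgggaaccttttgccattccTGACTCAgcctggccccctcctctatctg
Myc, chr15:62328764-62328814: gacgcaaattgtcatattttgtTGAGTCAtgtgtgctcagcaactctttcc
Socs3, chr11:117932361-117932411: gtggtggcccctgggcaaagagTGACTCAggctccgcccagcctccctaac
Dusp1, chr17:26530131-26530181: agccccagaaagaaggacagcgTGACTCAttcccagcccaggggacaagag
Myod1, chr7:46341763-46341813: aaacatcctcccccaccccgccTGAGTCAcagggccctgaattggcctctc
Met, chr6:17418187-17418237: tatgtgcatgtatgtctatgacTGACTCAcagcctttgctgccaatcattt

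The copies shown lay 173 bp from the middle of the summits at Fos, 144 bp at Atf3, 149 bp at Zfp36, 12 bp at Myc, 83 bp at Socs3, 162 bp at Dusp1, 114 bp at Myod1 and 37 bp at Met. Where a gene had several core sites, 1 of them is shown. The Fos copy is from the farthest of its 3 sites, the Atf3 copy from the site at chr1:191215962-191216547, the Socs3 copy from the site 36696 bp away and the Myod1 copy from its distal site. The Dusp1 copy is from a distal site 21293 bp from a TSS, where the folds were 11.8, 12.8 and 10.5 for the young libraries and 7.03 for the aged one, and not from the promoter site.

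Of 35 muscle stem cell genes, 2 had a core promoter site and 8 (22.9%) had either link. Myod1, the myogenic determination factor, had a site 1 bp from its TSS with folds of 8.02, 6.99, 7.47 for the young libraries and 4.66 for the aged one, and an H3K27ac fold of 4.42, and a distal one 34324 bp away with 8.03, 8.28, 6.01 and 7.32. Fgfr1, a receptor of fibroblast growth factors, had the other promoter site. Vcam1, the adhesion molecule by which MuSCs are sorted, was nearest to a site 59637 bp away with 13.7, 14.5, 12.8 and 11.5, and Met, the receptor of hepatocyte growth factor that activates MuSCs, had a site in an intron, 11827 bp from a TSS, with 18.1, 17.8, 17.1 and 8.28. A weaker site between genes, 45110 bp from the TSS of Met, is the one whose sequence is shown, and it had 6.49, 6.54, 5.35 and 6.41, so there the aged fold fell inside the young range. Sdc4, Cxcr4, Notch3 and Foxo3 were also nearest to a distal site. Of 30 muscle differentiation genes 1, Mylpf, had a link. Pax7, the defining gene of MuSCs, was not among the linked genes, and its promoter carried no H3K27ac peak either. Of 9 MuSC markers 5 had promoter H3K27ac (Myod1, Cdh15, Vcam1, Itga7 and Sdc4), against 2 of 4 endothelial markers (Pecam1 and Tek), 1 of 3 of fibro-adipogenic progenitors (Dcn) and 0 of 4 immune markers. The sort given for young and aged mice removes cells that carry CD45 and CD31, the products of Ptprc and Pecam1. Whether the H3K27ac library came from such a sort is not given. Of 28 markers of other cell types 5 had a link to a core site (Tek, Col1a1, Col3a1, Cd68 and Rgs5), 17.9%. The part of other cells in the sites was not tested.

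Genes of protein quality control were linked mostly at their promoters. Of 34 heat-shock and stress genes 8 (23.5%) had a core promoter site and 10 had either link, and of 40 ubiquitin and proteasome genes 8 had a promoter site and none had a distal link. At Xbp1, a transcription factor of the unfolded protein response, the site had folds of 18.6, 16.5, 17.2 for the young libraries and 8.78 for the aged one. At Psmd12, a proteasome subunit, it had 8.46, 7.86, 7.35 and 9.22, and at Hsph1, a chaperone, 8.10, 7.88, 8.14 and 9.13, so at both Psmd12 and Hsph1 the aged fold was the highest. Cdkn1a, the cell cycle inhibitor p21, had a site 1165 bp from a TSS with 17.3, 14.8, 13.0 and 11.8 and 2 motif copies. Nearly all genes of these lists carry promoter H3K27ac (33 of 34 and 40 of 40), so the 4.35% of all protein-coding genes is a background with fewer active promoters. A merged JunB region of any kind lay at the promoters of 26 of 34 and 24 of 40. Promoter sites were linked to 7 of 48 chromatin regulator genes, 3 of 37 splicing factor genes and 3 of 30 translation factor genes. At Kdm6b, which encodes a demethylase of H3K27, a promoter site with 3 motif copies had 18.2, 13.6, 14.7 and 7.91.

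The senescence-associated secretory phenotype (SASP) is the set of factors that senescent cells release. Of the 114 genes of the study's own SASP list, which also holds receptors and other products that are not secreted factors, 6 (5.26%) had a core promoter site and 13 (11.4%) had either link, close to the 4.35% and not far above the 7.63% of all protein-coding genes. Of the listed genes 49 (43.0%) had promoter H3K27ac, against 50.2% of all protein-coding genes. The background thus has more active promoters than this list. The promoter sites were at Il6ra, Ccl2, Cxcl2, Il2, Il12a and Tubgcp2, the last a gene of the gamma-tubulin complex and of no secreted factor. Ccl2, which draws monocytes, had a site 2042 bp from its TSS with folds of 7.19, 6.68, 7.84 and 5.49, an H3K27ac fold of 4.86 and 1 motif copy. Cxcl2, which draws neutrophils, had 9.67, 6.28, 9.17 and 5.16 without H3K27ac. Il6ra, the receptor of interleukin 6, had 13.3, 9.05, 11.0 and 10.3. The aged fold fell inside the young range at Il6ra and was the lowest at Ccl2 and Cxcl2. Since the list was drawn up by the study, its count is no independent evidence.

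**Figure D5:**
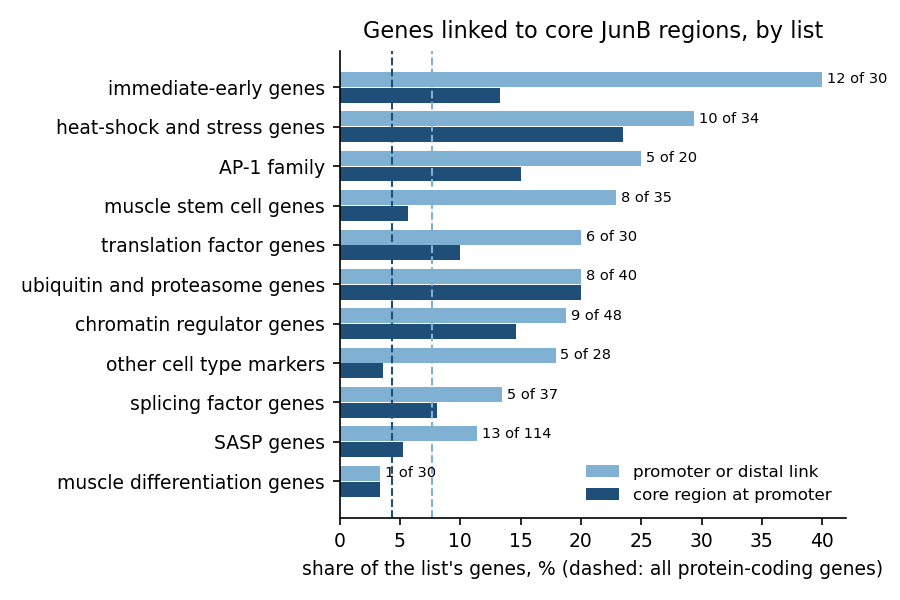
Share (%) of the annotated genes of each list with a core JunB site at the promoter (dark) and with a promoter site or a distal H3K27ac site nearest to the gene (light, with counts). Dashed lines give the same shares of all protein-coding genes, 4.35% and 7.63%. Immediate-early genes have the largest share with either link (40.0%), and muscle differentiation genes the smallest (3.33%).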

How the data were processed

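The 5 deposited peak lists of the series were used, 3 JunB Young, 1 JunB Aged and 1 H3K27ac library of mouse MuSCs. Reads had been trimmed and quality-filtered by the authors, mapped to mm10 (Bowtie2), stripped of duplicates and passed to MACS2 library by library. Versions and a control library are not given in the sources used here. The deposited lists give the fold enrichment of each peak (a ratio to the local background), its −log10 p, its −log10 q and a score, of which the score was not used. Since −log10 p is relative to its own library, it was used to rank peaks and is otherwise given only as a description of each list. Depth per library cannot be read from the lists, and precision is given as exact (Clopper-Pearson) binomial intervals at 95%, which cover counting error of regions only.

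Peaks on chromosomes 1 to 19 and X were merged with a gap of 0 bp. Classes and genes came from GENCODE M21 and bases from the GRCm38.p6 reference, the assembly that mm10 names; lower-case bases were counted as repeats. A region was a promoter site within 3 kb of any TSS, then exonic, intronic or intergenic. Genes were linked by a protein-coding TSS within 3 kb, or as the nearest one to a distal site with H3K27ac. Motifs were searched on both strands, with the motif wholly inside the 50 bp window or its middle base at most 250 bp from the summits. Named were the 10 strongest promoter sites and the 10 strongest distal sites with H3K27ac, both outside the 100 strongest H3K27ac peaks. So were the 5 strongest without H3K27ac and the 5 strongest core sites on those 100 peaks. Strength was the lowest percentile over the 4 libraries. Genes of the AP-1, immediate-early, muscle stem cell, muscle differentiation and SASP lists were also named. Trib1 and Jarid2, and the genes named from the other lists, were chosen after their values were seen, as were the 250 bp window and the printed sequences. The members and lists were chosen with earlier results of these data known. Merging was tested on simulated data against bedtools 2.31.1 (5689 of 5689 regions recovered), as were the nearest TSS (1000 of 1000) and the motif scan (2000 of 2000). Python 3.11.15, numpy 2.4.6, scipy 1.17.1 and matplotlib 3.10.9 were used. No test was made between ages or sets. Alternatives covered the peaks that enter, each library, the merge gap, the overlap, the summits, repeats, the strongest H3K27ac peaks, the promoter window, the TSSs, the H3K27ac peaks and the motif window.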

Additional observations from a re-analysis of the deposited data

Results flagged for a closer look

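Chromosome Y lay outside the chromosomes used for the core sites. It held 3 regions with a peak of each of the 4 JunB libraries, and the mitochondrial genome held 2. Young replicates 1, 2 and 3 had 60, 6 and 4 peaks on chromosome Y and the aged library had 85. No control library was there to compare them with.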

How the results depend on the processing

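The promoter share (41.2%), the H3K27ac share (69.9%), the share with the AP-1 motif within 50 bp (6.29%) and within 250 bp (57.6%) and the number of core sites (2465) were recomputed under 11 to 15 alternatives each, and a share was taken as moved when it left its own 95% interval. With the 2000 strongest peaks of each library there were 854 sites, with shares of 43.2%, 75.8%, 4.10% and 60.0% in that order, and 640 linked genes against 1658. With all summits within 100 bp there were 1404 sites, the promoter share was 38.7% and the motif shares were 3.70% and 60.2%. Leaving out each library in turn gave 2598 to 3294 sites, promoter shares of 38.3% to 42.9%, H3K27ac shares of 65.9% to 69.7%, motif shares of 5.51% to 5.68% and 54.9% to 58.7%, and 1738 to 2158 linked genes. The lowest promoter and H3K27ac shares were those without the aged library, and the most sites and the lowest share within 250 bp were those without young replicate 3. The promoter share was 32.0% with a window of 1 kb and 34.0% with TSSs of protein-coding genes only. The H3K27ac share was 59.9% for the middle of the summits and 48.8% with the 50% of H3K27ac peaks highest by −log10 p. The motif share was 15.7% within 100 bp and, in windows added after the data were seen, 57.6% within 250 bp and 59.0% anywhere in the region. The other alternatives (a −log10 q of at least 2, a merge gap of 100 bp, a base shared by all 4 libraries, and leaving out repeats or the strongest H3K27ac peaks) moved none of these values. The cause of the differences was not tested. No paired analysis was possible because the aged group is 1 library and no result comes from a test. Depth limits are unknown, since the lists hold no read counts.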
